A study of Mus musculus with 10 samples.

Results

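Fatty acid handling genes were followed in mouse liver with raised or lost activity of the SREBPs, the transcription factors that drive lipid synthesis. The genes are Cd36, Fabp1, Fabp2, Fabp4, Fabp5 and Dbi, 6 of the 8251 genes that the array measured. They were chosen by name, with earlier results of these data known. Their proteins take fatty acids across the cell membrane or bind them, and their acyl-CoA esters, in the cytosol. Each gene was read from the probe sets that the platform annotation assigns to it alone, and where there were 2 the brighter one was used. Fabp5 and Dbi were the members with large differences. Both were higher in the TgSREBP-1a pool, and Dbi was also lower in the Scap knockout pool. Fabp2 was lower in the pool of wild type mice fed a high-protein diet than in that of wild type mice fed chow. Those 2 pools also differ in age, injections and colony. The Fabp2 difference, 1.55-fold, was close to the 1.5-fold minimum used below.

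Fatty acids reach a hepatocyte from plasma and by synthesis inside the cell. CD36 is a membrane receptor that binds long-chain fatty acids and oxidised lipoproteins, and it is a minor route of uptake in the normal liver. Fatty acid binding proteins (FABPs) are small cytosolic barrels that each hold a fatty acid and carry it between membranes, enzymes and nuclear receptors. Fabp1 is the liver form and one of the most abundant hepatocyte messages, Fabp2 the intestinal form, Fabp4 the form of adipocytes and macrophages, and Fabp5 the form first described in epidermis. Dbi encodes acyl-CoA binding protein, which holds fatty acids once they are activated to acyl-CoA.

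The study used RNA of male mouse livers on Affymetrix MG_U74Av2 arrays, with 5 groups of 5 mice. TgSREBP-1a and TgSREBP-2 mice express the nuclear, active form of a human SREBP, SREBP-1a in one line and SREBP-2 in the other. Those 2 lines and their wild type littermates, here the high-protein wild type, were 12 to 16 weeks old and ate a diet high in protein and low in carbohydrate for 2 weeks, which was given to bring out transgene expression. Scap-/- mice lack SCAP, the escort protein that SREBPs need for activation, in liver. Their deletion used MX1-Cre, induced with 4 injections of polyinosinic-polycytidylic acid, and their controls, here the chow wild type, received the injections too. Both were 10 to 12 weeks old, were fed Teklad chow, and their livers were taken 14 days after the last injection. All 5 livers of a group went into 1 RNA pool, and each pool was hybridised to 2 arrays, so p-values measure only the spread between hybridisations and compare pools, with no error between mice. Precision is limited by the number of arrays and by there being 1 pool for each group.

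The deposited values are log2 signals, and a log2 difference of 1 is a doubling. Array medians lay between 6.37 and 6.4, and the 2 arrays of a pool correlated at 0.9921 to 0.9978 over genes. A called gene has a difference of 1.5-fold or more and an adjusted p below 0.05, from limma with Benjamini-Hochberg adjustment over all 8251 genes. Each value after ± is a standard error from limma, with n = 2 arrays for each pool. Scap itself was not analysed here, and Srebf1, an SREBP target as well as an SREBP gene, rose by 1.86 ± 0.07 in TgSREBP-1a and 1.34 ± 0.07 with TgSREBP-2, and fell by 1.51 ± 0.07 in Scap knockout, each against its own wild type. The wild type levels of Srebf1 were unequal, at 8.68 and 8.70 on the high-protein arrays against 10.07 and 10.14 on the chow arrays. Limma gave that difference an adjusted p of 1.516e-06. High-protein wild type thus lay near Scap knockout, which read 8.59 and 8.60. TgSREBP-2, at 10.01 and 10.04, did not exceed chow wild type, while TgSREBP-1a did, at 10.57 and 10.52. Albumin (Alb) read 13.5 to 13.9 on all 10 arrays. Signals of 8 exocrine pancreas genes were also present, with a mean level of 7.28 to 7.33 in TgSREBP-1a, at most 11.1 with TgSREBP-2 and 10.5 in high-protein wild type, and of 7.48 to 7.58 in Scap knockout against 9.59 to 9.64 in chow wild type. The source of these pancreas signals was not tested. These livers are mixtures of cells, so fewer cells of a type and less RNA per cell cannot be told apart.

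In TgSREBP-1a against high-protein wild type, 2 of the 6 members were called, both higher, where 4.78% of all genes were called higher and 7.37% were called in either direction. In TgSREBP-2 against the same wild type arrays, limma called 0 of 6 members, with 3 at an unadjusted p under 0.05, and 2.57% of all genes. In Scap knockout against chow wild type, 1 of 6 was called, lower, where 0.921% of all genes were called lower and 1.66% in either direction. Between the transgenic pools, TgSREBP-1a was called higher for 2 of 6 members, where 2.24% of all genes were called higher and 5.19% in either direction. The comparisons of each transgenic pool with wild type share the wild type arrays. Groups of 2 arrays often do not overlap. That held for 4 of 6 members and 51.6% of all genes in TgSREBP-1a against wild type, for 4 members and 43.8% of genes with TgSREBP-2, and for 2 members and 43.7% of genes in Scap knockout. Between the transgenic pools it held for 6 members and 44.7% of genes, and between the wild type pools for 5 members and 66% of genes. The members' median difference was 0.34 for TgSREBP-1a against wild type, 0.15 for TgSREBP-2 and -0.05 for Scap knockout, beside medians over all genes of -0.03, -0.02 and 0.00.

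**Figure D1:**
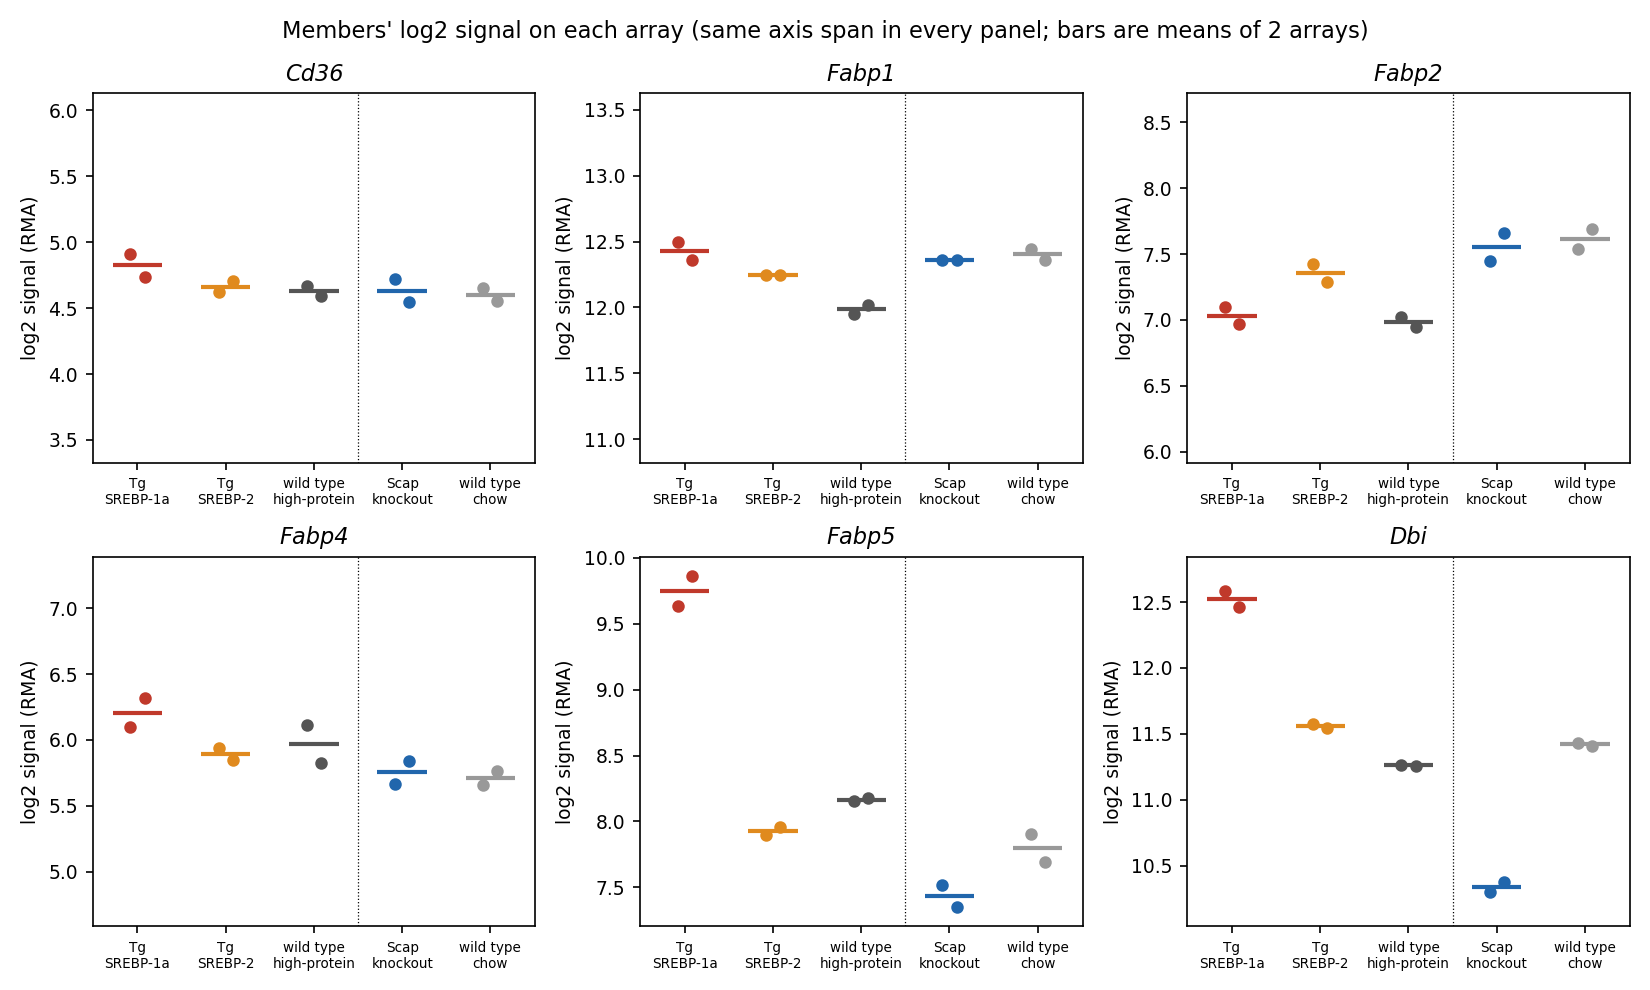
Each point is the log2 signal of a member on 1 array and each bar the mean of the 2 arrays of a pool, with the same axis span in every panel and a dotted line between the 2 sets of mice. Fabp5 stands at 9.64 and 9.86 in TgSREBP-1a alone, and Dbi is highest in TgSREBP-1a and lowest in Scap knockout.

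**Figure D2:**
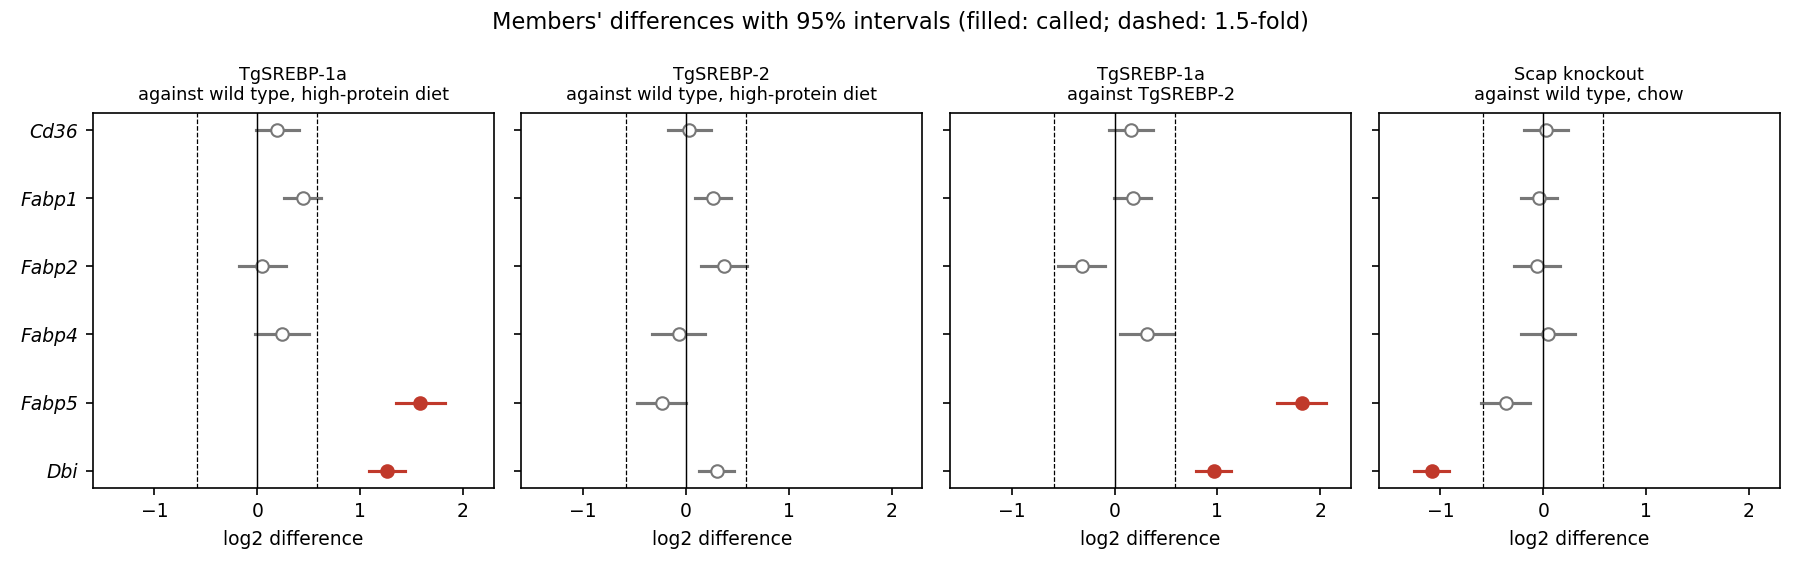
Points are log2 differences of the members in 4 comparisons, with 95% intervals, and dashed lines mark 1.5-fold. The filled points are Fabp5 and Dbi in TgSREBP-1a against high-protein wild type and against TgSREBP-2, and Dbi in Scap knockout.

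Cd36, the membrane receptor, was dim and differed little. Its signal was 4.91 and 4.74 on the TgSREBP-1a arrays, 4.62 and 4.71 on the TgSREBP-2 arrays, and 4.67 and 4.59 on the high-protein wild type arrays. It was 4.72 and 4.54 in Scap knockout, against 4.65 and 4.56 in chow wild type. Both TgSREBP-1a arrays lay above both arrays of their wild type, while the Scap knockout arrays overlapped those of theirs. The difference was 0.19 ± 0.09 in TgSREBP-1a, with a limma adjusted p of 0.2055, 0.03 ± 0.09 in TgSREBP-2 with an adjusted p of 0.903, and 0.03 ± 0.09 in Scap knockout with an adjusted p of 0.9925. The probe set was brighter than only 16.5% of the probe sets with 1 gene symbol. A second, dimmer Cd36 probe set did not follow it, with a Pearson correlation of -0.556 over the 10 arrays, which share 5 pools and 1 normalisation. Read from that probe set, the TgSREBP-1a difference was -0.11, so the arrays give no settled direction for Cd36.

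Members of the fatty acid transport protein family, which move or activate fatty acids at the membrane, and their membrane partners were measured for 7 of 9 genes listed. In TgSREBP-1a, limma called 0 of 7, with 2 at an unadjusted p under 0.05, and their median difference was -0.09. Slc27a2, a very-long-chain acyl-CoA synthetase and transporter, came nearest at -0.54 ± 0.17 with an adjusted p of 0.05419. It was called without replicate 1 of TgSREBP-1a, at -0.75, without replicate 2 of high-protein wild type, at -0.73, and after another quantile normalisation, and its adjusted p ran from 0.0002368 to 0.2841 over all alternatives. In TgSREBP-2, 0 of 7 were called, with 0 at an unadjusted p under 0.05 and a median of -0.14. In Scap knockout 1 of 7 was called, Slc27a5, the bile acid-CoA ligase of liver, which fell by 0.69 ± 0.10 with an adjusted p of 0.003511. That call was lost without replicate 2 of either pool, and its adjusted p ran from 3.128e-05 to 0.05654 over alternatives. The median of the list was 0.02 in Scap knockout.

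Lipases that free fatty acids from lipoproteins, and lipoprotein receptors, were measured for 5 of 9 genes. Lpl, lipoprotein lipase, rose by 2.19 ± 0.17 in TgSREBP-1a with a limma adjusted p of 7.908e-06, and was also higher than in TgSREBP-2, by 2.02 ± 0.17. It was the 1 gene of the 5 called in TgSREBP-1a, where 4 of the 5 had an unadjusted limma p under 0.05. In TgSREBP-2 and in Scap knockout limma called 0 of 5, with 0 and 1 at an unadjusted p under 0.05. The list had a median of -0.07 in TgSREBP-1a, against wild type, of -0.06 for TgSREBP-2 and of -0.06 for Scap knockout.

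Fabp1, the abundant FABP of hepatocytes, read 12.49 and 12.36 on the TgSREBP-1a arrays, 12.25 and 12.25 on the TgSREBP-2 arrays, and 11.95 and 12.02 on the high-protein wild type arrays. It read 12.36 and 12.36 in Scap knockout, against 12.45 and 12.36 in chow wild type. Among the high-protein diet pools the wild type arrays were lowest and no pool overlapped another, while in the Scap set the levels met. In TgSREBP-1a the difference was 0.44 ± 0.08, or 1.36-fold, with an adjusted p of 0.003605 in limma, below the 1.5-fold minimum. In TgSREBP-2 it was 0.26 ± 0.08 with an adjusted p of 0.1. Scap knockout differed by -0.04 ± 0.08, with an adjusted p of 0.9925 and a 95% interval that ran from -0.22 to 0.14. The chosen probe set was brighter than 99.7% of probe sets. A second Fabp1 probe set was dim, with duplicates 0.22 to 0.78 apart and a correlation of -0.10 with the first over the 10 arrays, and gave -0.04 in TgSREBP-1a.

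The Fabp1 promoter is shown because Fabp1 is the main FABP of hepatocytes and its window holds a TATA box and 2 nuclear receptor motifs. Promoters of Cd36, Fabp1 and Fabp2 were searched, from RefSeq on GRCm38.p6. The 250 bases before the Fabp1 start lie at chr6:71199629-71199878 on the plus strand, with capitals for a TATA box (TATAAA) and for the nuclear receptor hexamer (AGGTCA, here on the other strand as TGACCT).
Fabp1: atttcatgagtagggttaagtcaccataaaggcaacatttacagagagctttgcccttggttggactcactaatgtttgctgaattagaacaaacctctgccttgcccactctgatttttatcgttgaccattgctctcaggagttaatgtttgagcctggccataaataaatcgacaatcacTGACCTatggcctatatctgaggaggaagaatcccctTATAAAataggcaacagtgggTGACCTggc
The TATA box starts 30 bases before the start site, and the hexamers begin 67 and 9 bases before it. Of 32851 promoter windows of the same length, 12.4% hold TATAAA and 14% hold AGGTCA on either strand. The search also covered a sterol regulatory element (TCACNCCAC), in 1.05% of windows, a CCAAT box (CCAAT), in 33.8%, a GC box (GGGCGG), in 32.7%, and a direct repeat 1, which is the hexamer AGGTCA repeated after 1 free base, in 0.0335%. None of these 4 was found in the Fabp1 window on either strand, which says only that these letters are not there. The Cd36 window holds 1 CCAAT box, 2 GC boxes and 1 hexamer, and the Fabp2 window 1 CCAAT box.

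**Figure D3:**
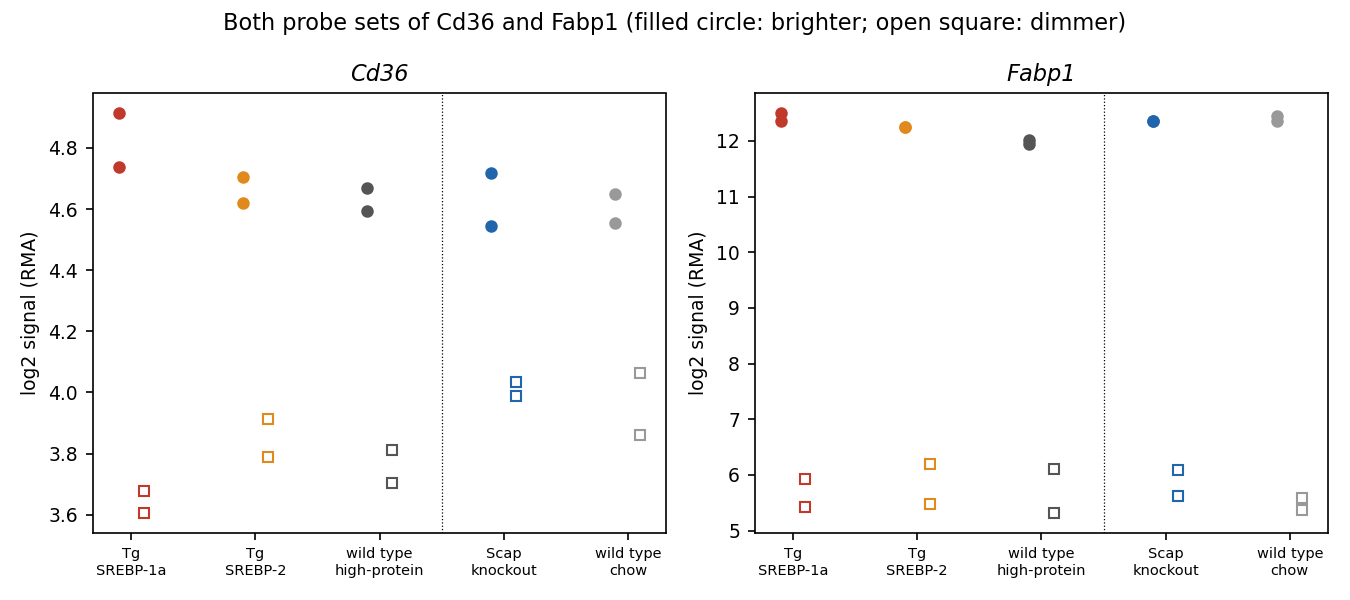
Each point is the log2 signal of a probe set on 1 array, filled circles for the brighter and open squares for the dimmer probe set of Cd36 (left) and Fabp1 (right), by pool. In TgSREBP-1a the brighter Cd36 probe set reads highest and the dimmer lowest, and the dimmer Fabp1 probe set has duplicates up to 0.78 apart.

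Fabp2, the FABP best known from enterocytes, read 7.10 and 6.97 on the TgSREBP-1a arrays, 7.42 and 7.29 on the TgSREBP-2 arrays, and 7.02 and 6.95 on the high-protein wild type arrays. It read 7.45 and 7.66 in Scap knockout, against 7.54 and 7.69 in chow wild type. TgSREBP-2 lay above its wild type on both arrays, and the TgSREBP-1a arrays overlapped those of wild type. The differences were 0.05 ± 0.10 in TgSREBP-1a with a limma adjusted p of 0.803, 0.37 ± 0.10 in TgSREBP-2 with an adjusted p of 0.07054, and -0.06 ± 0.10 in Scap knockout with an adjusted p of 0.9925. TgSREBP-1a against TgSREBP-2 gave -0.32 ± 0.10 with an adjusted p of 0.07648. Of 7 measured small intestine genes, Tff3, a mucosal trefoil peptide, rose by 0.84 in TgSREBP-1a and by 1.11 in TgSREBP-2 and fell by 0.73 in Scap knockout, and the list medians were -0.12, -0.19 and -0.01 in the same order. The brush-border genes of the list read 3.95 to 4.29 for Vil1, 4.34 to 4.92 for the lactase gene Lct and 6.99 to 7.85 for the metalloprotease gene Mep1b over the 10 arrays. The part of intestinal cells in the Fabp2 signal was not tested.

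Fabp2 gave the only call among the members between the wild type pools. It fell by 0.63 ± 0.10 in the high-protein against the chow wild type, 1.55-fold, with an adjusted p of 0.002353 in limma, where 4.34% of all genes were called lower and 5.62% in either direction. The call was lost without replicate 2 of chow wild type, where the difference was -0.56, and with 32 added to the linear signal, where it was -0.52. Its adjusted p ran from 4.791e-05 to 0.03773 over the alternatives, so the fold minimum decided it. In the same comparison limma called 1 of the 7 measured small intestine genes, with 4 at an unadjusted p under 0.05, and their median was 0.28, against 0.01 over all genes. Mep1b rose by 0.61 ± 0.15 with an adjusted p of 0.01763. That call was lost without replicate 2 of high-protein wild type, without either chow wild type array, with 32 added and with the mean of all probe sets, and its adjusted p ran from 0.0002906 to 0.1021. The mean level of the 7 genes was 5.87 to 5.96 in high-protein wild type, against 5.63 to 5.69 in chow wild type, and its part in the Fabp2 difference was not tested. Fabp1 differed in the same comparison by -0.42 ± 0.08 with an adjusted p of 0.005535, and Fabp5 by 0.37 ± 0.11 with an adjusted p of 0.03361, both below 1.5-fold. The other members gave 0.03 for Cd36, 0.25 for Fabp4 and -0.16 for Dbi, with adjusted p of 0.8566, 0.1429 and 0.1549. Diet, age, injections and colony of these 2 pools cannot be told apart.

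Fabp4, the FABP of adipocytes and macrophages, read 6.10 and 6.32 on the TgSREBP-1a arrays, 5.94 and 5.85 on the TgSREBP-2 arrays, and 6.11 and 5.82 on the high-protein wild type arrays. It read 5.67 and 5.84 in Scap knockout, against 5.66 and 5.76 in chow wild type. The arrays of each of these pools overlapped with those of its wild type. The differences were 0.24 ± 0.12 in TgSREBP-1a with a limma adjusted p of 0.2055, -0.07 ± 0.12 in TgSREBP-2 with an adjusted p of 0.8037, and 0.04 ± 0.12 in Scap knockout with an adjusted p of 0.9925. Adipoq, the adipocyte hormone adiponectin, read 4.13 to 4.69 on all 10 arrays. Other adipocyte genes were brighter, with Lep at 9.25 to 9.69, Lipe at 6.80 to 7.38 and Retn at 6.38 to 6.82. Of 5 measured adipocyte genes, Car3, a carbonic anhydrase that hepatocytes also express, was the 1 called in TgSREBP-1a, and it fell by 2.57 ± 0.12. In TgSREBP-1a, though, 5 of the 5 had an unadjusted limma p under 0.05, and the list median was -0.23. Limma called 0 of 5 in TgSREBP-2 and 0 of 5 in Scap knockout, with 2 at an unadjusted p under 0.05 in each.

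Fabp5 was the member with the largest difference. It read 9.64 and 9.86 on the TgSREBP-1a arrays, 7.90 and 7.96 on the TgSREBP-2 arrays, and 8.15 and 8.18 on the high-protein wild type arrays. Both TgSREBP-1a arrays stood far above all 8 other arrays, and both TgSREBP-2 arrays stood below both wild type arrays. Fabp5 rose by 1.59 ± 0.11 in TgSREBP-1a against wild type, 3.0-fold, with a 95% interval of 1.35 to 1.82 and a limma adjusted p of 2.988e-06. Against TgSREBP-2 it was higher by 1.82 ± 0.11, 3.53-fold, with an adjusted p of 1.295e-06. TgSREBP-2 differed from wild type by -0.23 ± 0.11 with an adjusted p of 0.2954. With 1 array left out at a time, the TgSREBP-1a difference stayed between 1.47 and 1.70 and was called each time.

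In the Scap set Fabp5 read 7.52 and 7.35 in Scap knockout, against 7.90 and 7.69 in chow wild type. Both knockout arrays were the lower ones. The difference was -0.36 ± 0.11, with a limma adjusted p of 0.1567, and was not called. In the order of its group means, TgSREBP-1a came first, then high-protein wild type, TgSREBP-2, chow wild type and Scap knockout, and only TgSREBP-2 and chow wild type overlapped as neighbours.

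Fabp5 is also expressed in macrophages, endothelium and stratified epithelia. Of 10 measured macrophage genes 5 were called higher in TgSREBP-1a, led by Cd5l, a secreted macrophage protein, at 1.53 ± 0.16 and C1qb, a complement subunit, at 1.09 ± 0.09. The mean level of the list was 8.37 to 8.48 in TgSREBP-1a, 8.07 to 8.12 with TgSREBP-2 and 7.71 to 7.74 in high-protein wild type. In TgSREBP-2, 3 of 10 were called higher, and only 1 without its replicate 1, while Fabp5 was lower there than in wild type on both arrays. In Scap knockout limma called 0 of 10, with 2 at an unadjusted p under 0.05, and the mean level was 8.21 to 8.23 against 8.32 to 8.43 in chow wild type. Between the wild type pools 4 of the 10 were called lower in high-protein wild type, where 4.34% of all genes were. The median difference of all 10 in that comparison was -0.56. The part of macrophages in the Fabp5 rise was not tested.

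Of 8 measured endothelial genes, Lyve1, a hyaluronan receptor of sinusoids and lymphatics, and Cdh5, an endothelial cadherin, were called higher in TgSREBP-1a, at 1.09 ± 0.17 and 0.72 ± 0.12. Without replicate 1 of TgSREBP-1a only Lyve1 was called, and with 32 added to the linear signal neither was. The mean level was 6.58 to 6.71 in TgSREBP-1a against 6.32 to 6.35 in high-protein wild type. Limma called 0 of 8 in TgSREBP-2 and 0 of 8 in Scap knockout, with 1 and 0 at an unadjusted p under 0.05. Of 7 stratified epithelium genes, the keratins Krt4 and Krt13 were the 2 called, at -1.11 and -1.07 in TgSREBP-1a and at -1.30 and -0.82 with TgSREBP-2, where Krt13 was lost with 32 added to the linear signal. In Scap knockout both keratins were higher, by 2.57 and 1.94, and were again the 2 called of the 7. The parts of endothelium and stratified epithelium in the Fabp5 signal were not tested.

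Of the other lipid binding proteins that share the FABP fold, 7 of 11 were measured, and limma called 0 in each transgenic pool and 0 in Scap knockout, with 4, 2 and 0 at an unadjusted p under 0.05. Their median was -0.17 in TgSREBP-1a, against wild type, -0.15 for TgSREBP-2 and 0.03 for Scap knockout. The smallest adjusted p in TgSREBP-1a was 0.01573, for Fabp6, the ileal bile acid binding protein, at -0.35, below 1.5-fold. Fabp3, the heart form, fell by 0.74 ± 0.16 in TgSREBP-1a against TgSREBP-2 with an adjusted p of 0.01188, and that call was lost with 32 added, without replicate 1 of TgSREBP-1a and without replicate 2 of TgSREBP-2. Its adjusted p ran from 0.0002073 to 0.07269 over the alternatives.

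Dbi, acyl-CoA binding protein, was the member called in both sets of mice, in opposite directions. It read 12.58 and 12.46 on the TgSREBP-1a arrays, 11.58 and 11.54 on the TgSREBP-2 arrays, and 11.27 and 11.26 on the high-protein wild type arrays. It read 10.30 and 10.37 in Scap knockout, against 11.43 and 11.41 in chow wild type. No pool overlapped another, in the order TgSREBP-1a, TgSREBP-2, chow wild type, high-protein wild type and Scap knockout. Dbi rose by 1.26 ± 0.08 in TgSREBP-1a, 2.40-fold, with a 95% interval of 1.09 to 1.43 and a limma adjusted p of 1.455e-06. In Scap knockout it fell by 1.09 ± 0.08, 2.12-fold, with an interval of -1.26 to -0.91 and an adjusted p of 1.868e-05. Ranked from the most negative difference of the 8251 genes, Dbi was number 34 in Scap knockout.

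TgSREBP-2 gave Dbi a smaller difference. Both its arrays lay above both wild type arrays, at 0.30 ± 0.08, 1.23-fold, with an adjusted p of 0.05607 in limma, and it was not called. TgSREBP-1a against TgSREBP-2 was 0.96 ± 0.08, 1.95-fold, with an adjusted p of 1.522e-05. With 1 array left out at a time, the difference of Dbi was 1.20 to 1.32 in TgSREBP-1a and -1.12 to -1.05 in Scap knockout, called each time. The exocrine pancreas genes were lower in both of these pools, 8 of 8 called in each. Their relation to the Dbi signal was not tested.

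Acyl-CoA synthetases make the acyl-CoA that Dbi binds, and thioesterases split it. Of 16 such genes 7 were measured, and 5 rose in TgSREBP-1a, with a list median of 0.84. Acsl5 and Acsl4, long-chain synthetases, rose by 2.09 ± 0.14 and 1.77 ± 0.28, with limma adjusted p under the threshold in each of 19 alternatives. The thioesterases Acot1 and Acot7 rose by 1.15 ± 0.09 and 0.84 ± 0.12. In TgSREBP-2 Acsl4 rose by 1.41 ± 0.28 and Acsl5 by 0.86 ± 0.14, while Acot1 fell by 0.75 ± 0.09, and the median was 0.35. Without replicate 1 of TgSREBP-2 neither synthetase was called, and Acsl4 was also lost without replicate 2 of high-protein wild type and in a fit of the transgenic set alone. Their adjusted p ran from 1.175e-05 to 0.1509 for Acsl4 and from 1.255e-05 to 0.06242 for Acsl5.

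In Scap knockout Acsl5 fell by 0.81 ± 0.14 with a limma adjusted p of 0.009998, the 1 call of 7, and the list median was -0.15. That call was lost without any 1 of the 4 arrays of the Scap set, and its adjusted p ran from 5.832e-06 to 0.1021. Acot1 was higher in TgSREBP-1a than in TgSREBP-2 by 1.90 ± 0.09, and Acsl5 by 1.22 ± 0.14. Acot1 was also the 1 gene of the list called between the wild type pools, higher by 1.44 ± 0.09 in the high-protein wild type.

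Other carriers of acyl-CoA and lipids were measured for 7 of 13 genes. Pctp, which carries phosphatidylcholine, rose by 2.00 ± 0.11 in TgSREBP-1a with a limma adjusted p of 4.677e-07 and was the 1 gene of 7 called there. Limma called 0 of 7 in TgSREBP-2 and 0 of 7 in Scap knockout, with 1 each at an unadjusted p under 0.05. The list had a median of -0.02 in TgSREBP-1a, against wild type, of -0.06 for TgSREBP-2 and of -0.05 for Scap knockout.

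Lipid droplet proteins were measured for 7 of 11 genes. Cidea, which fuses droplets, rose by 2.03 ± 0.12 in TgSREBP-1a, and G0s2, an inhibitor of adipose triglyceride lipase, fell by 2.99 ± 0.12 there, and fell by 2.16 ± 0.12 in TgSREBP-2. Against wild type these were the only calls of the list, 2 in TgSREBP-1a and 1 in TgSREBP-2. Limma called 0 of 7 in Scap knockout, with 1 at an unadjusted p under 0.05. The list had a median of 0.07 in TgSREBP-1a, against wild type, of -0.15 for TgSREBP-2 and of 0.04 for Scap knockout. G0s2 read 9.67 and 9.66 in high-protein wild type, 7.47 and 7.53 in TgSREBP-2 and 7.31 and 7.31 in chow wild type. Between the wild type pools 2 of the 7 genes were called, higher in high-protein wild type, where 5.62% of all genes were called in either direction.

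Regulators known to act on the members were measured for 14 of 16 genes. Ppara, the fatty acid sensing receptor that drives Fabp1 and Cd36 in liver, fell by 1.24 ± 0.13 in TgSREBP-1a with a limma adjusted p of 0.0001048. Nr1i3, a xenobiotic receptor, fell by 0.97 ± 0.08 and Cebpa, a hepatocyte and adipocyte factor, by 0.77 ± 0.08. Srebf1, given above, was the 1 regulator called in TgSREBP-2 and in Scap knockout. The list had a median of -0.17 in TgSREBP-1a, against wild type, of -0.02 for TgSREBP-2 and of -0.04 for Scap knockout. Ppara read 8.43 and 8.21 in TgSREBP-1a, 9.75 and 9.37 in high-protein wild type and 8.58 and 8.60 in chow wild type. Among 9 measured hepatocyte genes, Ttr, transthyretin, was the 1 called in TgSREBP-1a and fell by 1.37, and the mean level of the list was 11.9 to 12.0 in TgSREBP-1a against 12.2 to 12.3 in high-protein wild type. In TgSREBP-1a 6 of the 9 had an unadjusted limma p under 0.05, and the list median was -0.19. Not all of the 9 fell, as Alb read 13.85 and 13.84 there against 13.55 and 13.60 in high-protein wild type. Limma called 0 of 9 in TgSREBP-2 and 0 of 9 in Scap knockout, with 1 and 4 at an unadjusted p under 0.05.

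**Figure D4:**
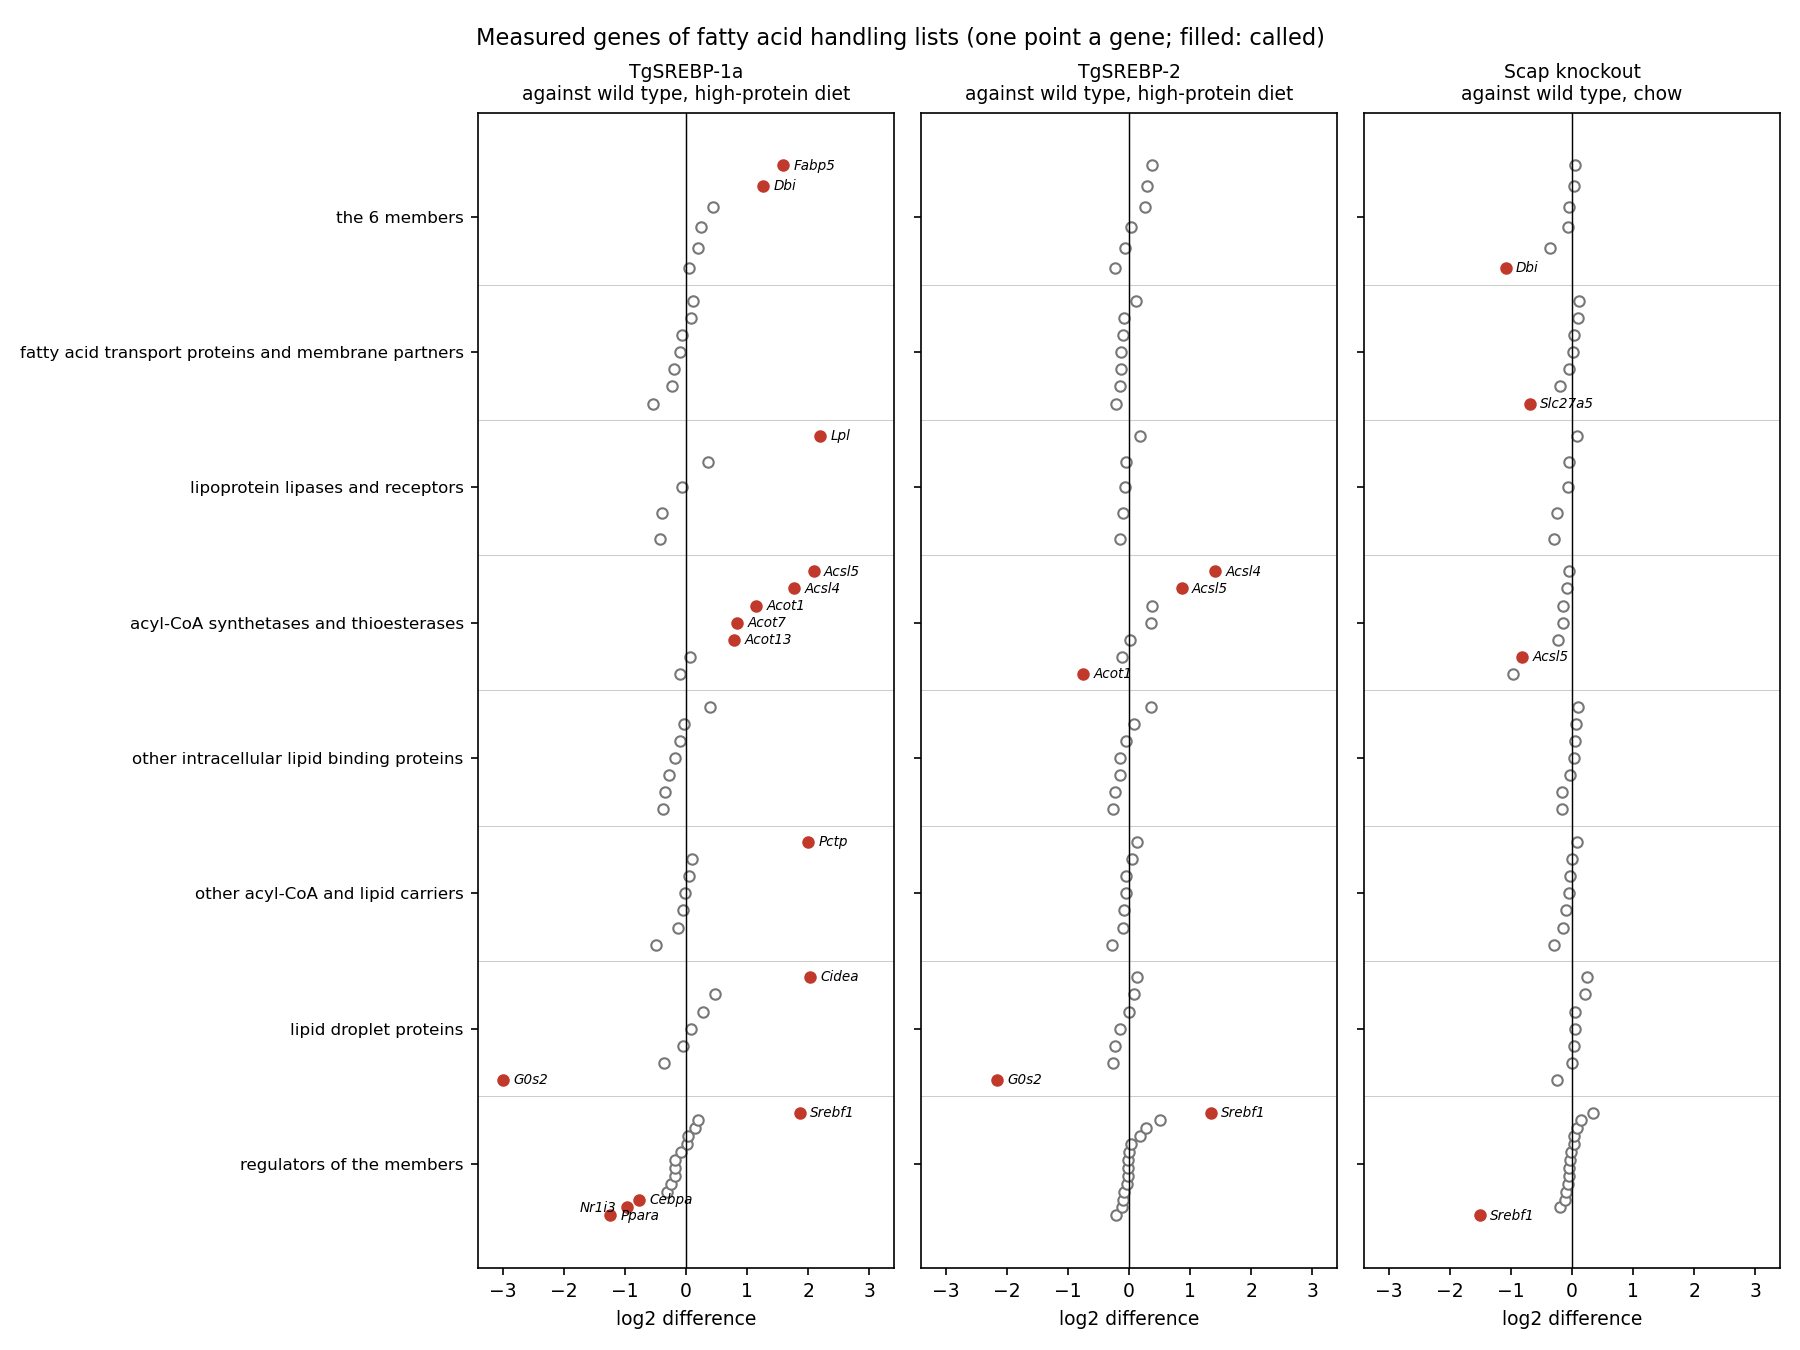
Each point is the log2 difference of 1 gene in 1 of 3 comparisons, by list, and filled points with names are called genes. The acyl-CoA list holds 5 filled points in TgSREBP-1a, and the regulators 4.

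The genes whose signal ran most like a member's were taken from genes whose 5 group means span at least 1 log2 unit, by Pearson correlation over the 10 arrays, which are pairs from 5 pools and share 1 normalisation. For Dbi these were Fads1, a desaturase of polyunsaturated fatty acids, at 0.992, Elovl5, an elongase, at 0.984, and Cisd1, a mitochondrial outer membrane protein, at 0.979. Fads1 averaged 11.51 in TgSREBP-1a, 10.28 with TgSREBP-2 and 9.41 in high-protein wild type, and 8.0 in Scap knockout against 9.71 in chow wild type. Fads1 has the order of pools seen for Dbi. For Fabp5 they were Pctp at 0.977, Crat, carnitine acetyltransferase, at 0.966 and Cystm1 at 0.964. Pctp averaged 7.81 in TgSREBP-1a and 5.39 to 5.80 in the other 4 pools.

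The remaining members moved over a narrow range, so their nearest genes rest on small differences. The group means of Fabp1 span 0.44, and its nearest genes were C1qb at 0.956, Cyp3a11, a cytochrome P450 of drug metabolism, at 0.93 and Adh1, an alcohol dehydrogenase, at 0.93. Fabp2 spans 0.63, and its nearest genes were Rpn1 at 0.961 and the interferon-induced genes Irf7 at 0.961 and Ifit1 at 0.959, which were higher in both chow-fed, injected pools than in the 3 high-protein pools. Fabp4 spans 0.50, with Cyp4a10 at 0.882 and Cyp4a14 at 0.876, both fatty acid hydroxylases, and St3gal5 at 0.875. Cd36 spans 0.22, with Nt5e at 0.855, Gpx3 at 0.834 and B4galt6 at 0.826.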

How the data were processed

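The table the authors deposited holds log2 signals of 12488 probe sets. RMA made them, per the submitters' processing notes, with no version given in the sources used here. Microarray Suite 5.0 is the software that the design text names. The values ran from 2.68 to 14.03. The deposited log2 values were used as they stand, and detection calls were not used here. Probe sets were named from the platform annotation, with symbols updated by gene ID for 10817. There were 10833 with 1 symbol, 396 with several and 1193 with none, besides 66 controls, and only the first kind was used. For each of 8251 genes the probe set of highest mean signal was kept, a choice for 2073 genes.

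limma 3.58.1 (lmFit, then eBayes) in R 4.3.3 was fitted to all 10 arrays at once, with a coefficient for each group and 5 residual degrees of freedom, and 5 contrasts were adjusted by Benjamini-Hochberg over all genes. Same-numbered arrays deviated together within the transgenic set, with correlations of 0.46 to 0.61, and at 0.3 in the Scap set, between -0.12 and -0.48 across sets, and what a number marks is not stated in the labels. An alternative took the replicate number within a set as a block.

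The members and the 14 gene lists were chosen with earlier results of these data known. The text names the 6 members, up to 4 called genes of the largest difference per list and comparison (or, with no call, a gene with the smallest adjusted p), and per member the 3 genes of highest correlation. Array replicates are named by the number in their labels. Promoters came from RefSeq, and 1 of them is not reported here. Alternatives were each array left out, other normalisations and probe sets, filters, fold minimums and smaller fits. Those for listed genes were added after the data were seen.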

Additional observations from a re-analysis of the deposited data

How the results depend on the processing

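The calls of Fabp5 and Dbi in TgSREBP-1a and of Dbi in Scap knockout were kept in each of 19 alternatives. Genes called without a fold minimum, and with a minimum of 2-fold, numbered 1366 and 240 in TgSREBP-1a, 417 and 72 with TgSREBP-2, 234 and 53 for Scap knockout, 911 and 185 for TgSREBP-1a against TgSREBP-2, and 1869 and 110 between the wild type pools. With 1 array left out at a time they numbered 564 to 734, 143 to 255, 100 to 145, 411 to 479 and 341 to 593, in the same order. With the replicate number as a block they were 618, 229, 150, 442 and 479, and the members called were 2, 0, 1, 2 and 1, as without the block. A 2-fold minimum left 1 member between the transgenic pools. Between the wild type pools the members called were 3 without a fold minimum, 0 with 2-fold, 0 with 32 added to the linear signal, and 0 to 1 with an array left out.

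Of 569 alternative values of members' differences, 542 kept direction and call, 2 lost the call of Fabp2 between the wild type pools, and 25 reversed sign, all of them differences that were not called. From the dimmer probe set, Cd36 gave -0.11 in TgSREBP-1a, -0.21 against TgSREBP-2 and -0.20 between the wild type pools, and Fabp1 gave -0.0379, -0.16 and 0.23 there and 0.37 in Scap knockout. The mean of both probe sets gave 0.17 for Fabp1 in Scap knockout, and -0.023 between the transgenic and -0.0883 between the wild type pools for Cd36. Another quantile normalisation gave 0.0492 for Fabp1 in Scap knockout and -0.0232 for Cd36 between the wild type pools. With an array left out, Fabp2 ran from -0.0161 to 0.113 in TgSREBP-1a, and in TgSREBP-2 Cd36 ran from -0.0102 to 0.0754 and Fabp4 from -0.22 to 0.0725. In Scap knockout Cd36 ran from -0.0583 to 0.12, Fabp1 from -0.0846 to 0.0014, Fabp2 from -0.17 to 0.0462 and Fabp4 from -0.0445 to 0.13, and between the wild type pools Cd36 ran from -0.0191 to 0.0751. The cause was not tested. Duplicates differed at least 1.5-fold for 151 genes in TgSREBP-1a, 55 in TgSREBP-2, 101 in high-protein wild type, 6 in Scap knockout and 0 in chow wild type, while the fit takes 1 variance per gene for all groups. A fit of 1 set alone gives no value between the wild type pools.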
